A study of Mus musculus with 27 samples.

Results

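The 39 genes described here mark endothelial cells, the cells that line blood vessels, and were picked by name from general knowledge of that cell type. The choice was made with earlier results of these data known, so counts over the list are descriptions and no independent test. All 39 were found among the 37208 genes or transcripts on the array, 20141 of them with a gene symbol. Probes were matched to symbols through their RefSeq accessions, and a gene with several probes was read from the one whose mean over all 27 arrays was highest.

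The arrays followed mouse embryonic stem cells as they formed blood through an endothelial stage in culture. All of the cells carried a doxycycline-inducible dominant-negative FOS peptide (dnFOS) at the Hprt locus, which blocks the DNA binding of AP-1. The untreated groups carried that construct too and differed only in receiving 0 µg/ml doxycycline (DOX). FLK1+ cells were isolated with magnetic beads from embryoid bodies at day 3.75 and placed in blast culture, where they were collected as a complete culture after 5 h (FLK1+ 5h) or 24 h (d1 BC). Sorted cells from later blast culture were smooth muscle cells (SM), a first and a second haemogenic endothelium (HE1, KIT+ TIE2+ CD41-, and HE2, KIT+ TIE2+ CD41+) and haematopoietic progenitors (HP, KIT+ TIE2- CD41+). DOX was given at 1 µg/ml for 5 h in FLK1+ 5h cells, for 1 day in d1 BC and for 2 days in the sorted cells, and FLK1+ cells had no DOX arm. Each of the 13 groups held 2 arrays, apart from untreated SM with 3. How many clones of the dnFOS line were used and which markers defined SM cells are not given in the sources used here.

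Endothelial cells hold together through VE-cadherin junctions and respond to angiopoietins through the TIE receptors and to VEGF through its receptors. Their surface prevents clotting and regulates vessel tone. In the embryo, a subset of endothelial cells, the haemogenic endothelium, gives rise to blood cells, and in doing so loses its junctions and vessel genes while gaining blood genes. Several endothelial genes stay on in blood: Cd34 in progenitors, and Vwf, Mmrn1 and Pecam1 in megakaryocytes and platelets.

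The promoters of Tek, Tie1, Stab1 and Mmrn1 are shown because the results return to these genes. Tek encodes the receptor TIE2 used in the sort and Tie1 its partner. Stab1 was among the genes at background in FLK1+ cells and bright in HE1, and Mmrn1 was the 1 member called higher in HP than in HE1. RefSeq (GRCm38.p6) promoters were given for 20 of the 39 genes. The 250 bases before each start site are printed on the strand of the gene. Capitals mark the letters AGGAAG, the ETS motif searched for here, on either strand.

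Tek, chr4:94739039-94739288, plus strand: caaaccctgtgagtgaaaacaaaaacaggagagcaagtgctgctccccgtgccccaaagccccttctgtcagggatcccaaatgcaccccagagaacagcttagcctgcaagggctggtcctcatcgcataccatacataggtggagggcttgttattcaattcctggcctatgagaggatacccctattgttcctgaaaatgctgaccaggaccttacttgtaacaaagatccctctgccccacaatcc
Tie1, chr4:118489850-118490099, minus strand: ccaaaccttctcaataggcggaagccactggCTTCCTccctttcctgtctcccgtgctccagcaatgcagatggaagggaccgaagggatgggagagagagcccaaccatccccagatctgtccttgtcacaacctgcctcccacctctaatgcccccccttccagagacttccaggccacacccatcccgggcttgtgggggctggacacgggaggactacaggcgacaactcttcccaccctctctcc
Stab1, chr14:31168642-31168891, minus strand: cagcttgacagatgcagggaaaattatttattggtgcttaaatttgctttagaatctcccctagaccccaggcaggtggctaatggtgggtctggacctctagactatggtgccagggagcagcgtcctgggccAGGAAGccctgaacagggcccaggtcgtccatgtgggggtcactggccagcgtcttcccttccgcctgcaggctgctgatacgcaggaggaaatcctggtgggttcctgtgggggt
Mmrn1, chr6:60944067-60944316, plus strand: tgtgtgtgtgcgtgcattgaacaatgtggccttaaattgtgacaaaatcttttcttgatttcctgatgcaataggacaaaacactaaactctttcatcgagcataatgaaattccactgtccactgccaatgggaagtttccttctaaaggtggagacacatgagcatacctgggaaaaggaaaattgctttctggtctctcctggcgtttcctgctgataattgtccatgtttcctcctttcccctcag

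ETS factors such as ERG and FLI1 drive endothelial genes. The letters AGGAAG stood once in the Tie1 window and once in the Stab1 window, starting at -219 and -116 counted from the start site. They were not in the Tek and Mmrn1 windows, but the shorter GGAA, or TTCC for the other strand, stands unmarked in both of those. Of the 20 genes with a promoter, 13 held AGGAAG, against 29.5% of all 32851 promoters in the table. The AP-1 letters TGANTCA stood in 1 of the 20 (Procr) against 6.75% of all promoters, the TEAD letters GGAATG in 1 (Clec14a) against 12.6%, and the GATA letters AGATAA in 1 (Myct1) against 9.99%. Both strands were searched, and no gene held 2 of these motifs. These are descriptions of letters, and binding was not measured here.

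A level below is the log2 of the spot signal minus the 75th percentile of that array, so that 0 is the 75th percentile itself and 1 unit is a 2-fold difference. Levels are set against each other only within a gene. A gene was tested if, in 1 or more of the groups compared, every array showed its probe well above background. Calls came from a limma fit of the 13 group means and needed a 2-fold difference and a p under 0.05 after Benjamini-Hochberg adjustment over all genes tested. Nothing in the labels says that the arrays of a group came from separate cultures, so p-values measure only the spread between these arrays. With 2 arrays in most groups, a difference that was not called may still be large.

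The 75th percentile signal ran from 78.8 to 732 over the arrays, and 48.0 to 89.7% of spots were well above background. The lowest signal was that of HE2 replicate 1 and the largest share of spots above background that of SM replicate 2. Arrays of a group correlated with r of 0.903 to 0.981 over 16033 genes. Hprt, at whose locus the construct sits, rose on DOX by 2.80 on average over the populations (log2, SE 0.23, limma adjusted p = 6.54e-06) and its DOX and untreated arrays did not overlap in any population. FLK1+ arrays lay on 1 slide, which held no HE1, HE2 or HP array. In complete cultures, fewer cells of a type and less RNA per cell cannot be told apart.

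The SM arrays differed among themselves in the endothelial genes. On SM replicate 2, 35 of the 39 genes were higher than on both other untreated SM arrays. Over all 39 genes the median difference from the mean of those arrays was 2.65 on the log2 scale. On DOX-treated SM replicate 2, 34 were higher than on replicate 1, with a median difference of 2.84 over all 39. Cdh5 showed the gap: it was -1.12 and -0.41 on SM replicates 1 and 3 and 4.34 on replicate 2, and -1.39 and 4.74 on the 2 DOX arrays. Gpr182 stood at -4.20 and -4.74 on replicates 1 and 3 and at 1.73 on replicate 2. Both high arrays shared a slide. The summed signal of 10 smooth muscle markers was 2057 on SM replicate 2, against 1611 and 1039 on replicates 1 and 3, and that of 12 haematopoietic markers was 28.3 against 10.4 and 11.9. The 10 erythroid markers ran the other way, at 76.6 on SM replicate 2 against 570 and 415 on replicates 1 and 3, and at 63.2 against 210 on the DOX arrays. What part a different cell composition, the slide or the depth of signal had in this was not tested. Results that rest on SM are also given without these arrays.

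**Figure D1:**
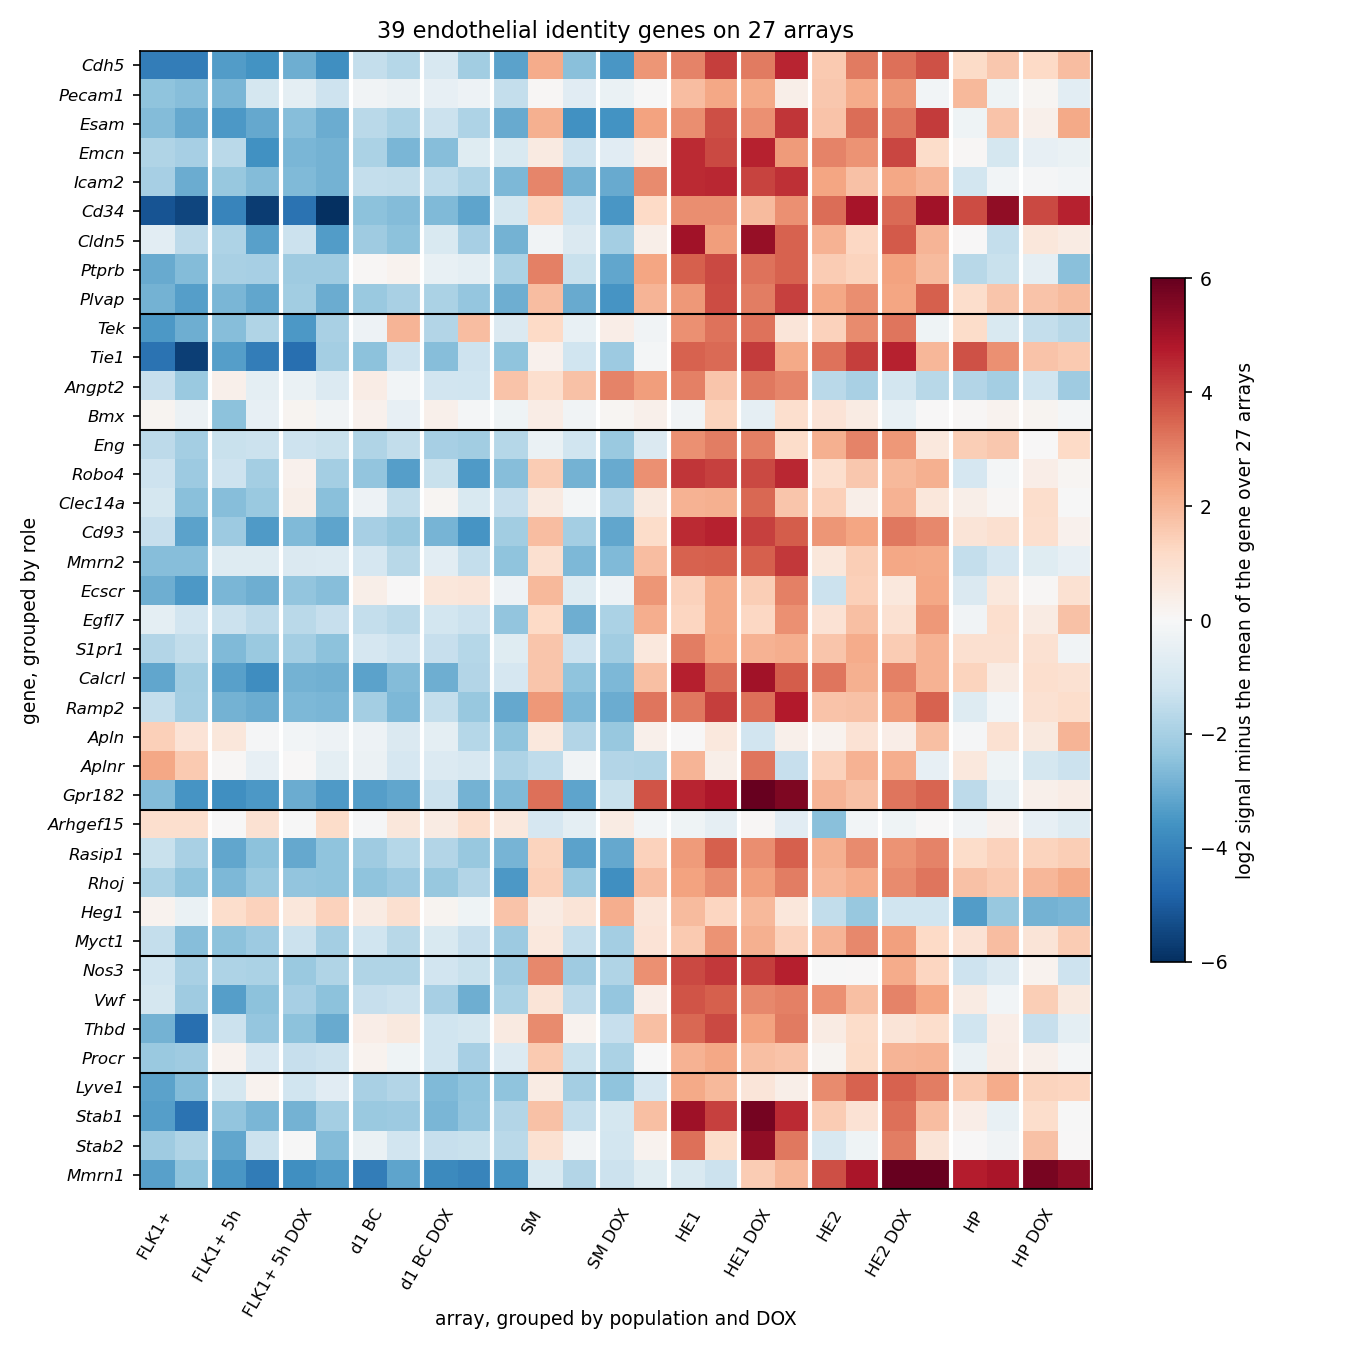
Log2 signal of each of the 39 genes (rows, grouped by role, black lines between roles) on each of the 27 arrays (columns, in groups of population and DOX), minus the mean of that gene over the arrays. In most rows red cells run together in HE1 and fade through HE2 to HP and the second array of SM and of SM with DOX is redder than the other SM arrays, while Mmrn1 is reddest in HE2 and HP.

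Most of the endothelial genes peaked in HE1. The untreated group with the highest mean was HE1 for 30 of the 39 genes, HE2 for 4 (Tie1, Lyve1, Myct1 and Bmx), FLK1+ cells for 3 (Apln, Aplnr and Arhgef15) and HP for 2 (Cd34 and Mmrn1). For 19 of the 30 genes highest in HE1, both HE1 arrays lay above all arrays of the next highest untreated group. Over all genes above background in some untreated group, HE1 was highest for 17.1%, and its arrays lay apart in this way in 16.1% of those. The other 11 members highest in HE1, among them Cdh5, Pecam1 and Tek, overlapped with their next highest group. The mean fell from HE1 to HE2 and again from HE2 to HP in 29 of the 39 genes, and it did so in 28 on DOX, 26 of them in both arms, against 20.9% of all genes without DOX. The 29 include Heg1 and Angpt2, which were at background in HP, and Heg1 in HE2 too, so that their second step has no fixed direction. They also include Plvap, whose dimmer second probe went the other way from HE1 to HE2 (0.23 against -0.72). The dimmer probe of Myct1, named above as highest in HE2, did so too (-0.30 against 0.31). Over 27 arrays, 26 genes were above background everywhere, and the other 13 fell to background on at least 1 array.

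The genes that define the cell type behaved alike but not identically. Cdh5, the VE-cadherin of endothelial junctions, was at -2.05 and -2.07 on the FLK1+ arrays, at -1.25 and -1.49 after 5 h and at 0.65 and 0.40 in d1 BC. It stood at 5.09 and 6.23 in HE1, 3.69 and 5.20 in HE2, and 3.26 and 3.73 in HP. Cdh5 thus stayed well above its FLK1+ level on both HP arrays, and the HE1 and HE2 arrays overlapped.

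Pecam1, the CD31 adhesion molecule, was at -2.99 and -3.16 in FLK1+ cells, -3.33 and -1.62 after 5 h, and -0.78 and -0.93 in d1 BC. HE1 held 1.28 and 1.72, HE2 1.02 and 1.64, and HP 1.37 and -0.85. The HP arrays lay apart from each other by more than HE1 and HE2 differed, so that 1 HP array was at the HE1 level and the other at the d1 BC level.

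Tek was at -3.96 and -3.42 in FLK1+ cells, -3.04 and -2.31 after 5 h, and -0.79 and 1.53 in d1 BC. It reached 2.22 and 2.74 in HE1, 0.87 and 2.33 in HE2, and 0.58 and -1.42 in HP. HE1 and HE2 were sorted as TIE2+ and HP as TIE2-, so the lower Tek in HP is only a description, and the HE1 and HE2 arrays overlapped. On the second DOX-treated arrays of HE1 and HE2, Tek was at 0.20 and -0.75, below the first untreated HP array, although these cells were sorted as TIE2+. Pecam1 was low on the same pair of arrays, at -0.22 and -0.77, while Cdh5 was not, at 6.68 and 5.91.

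**Figure D2:**
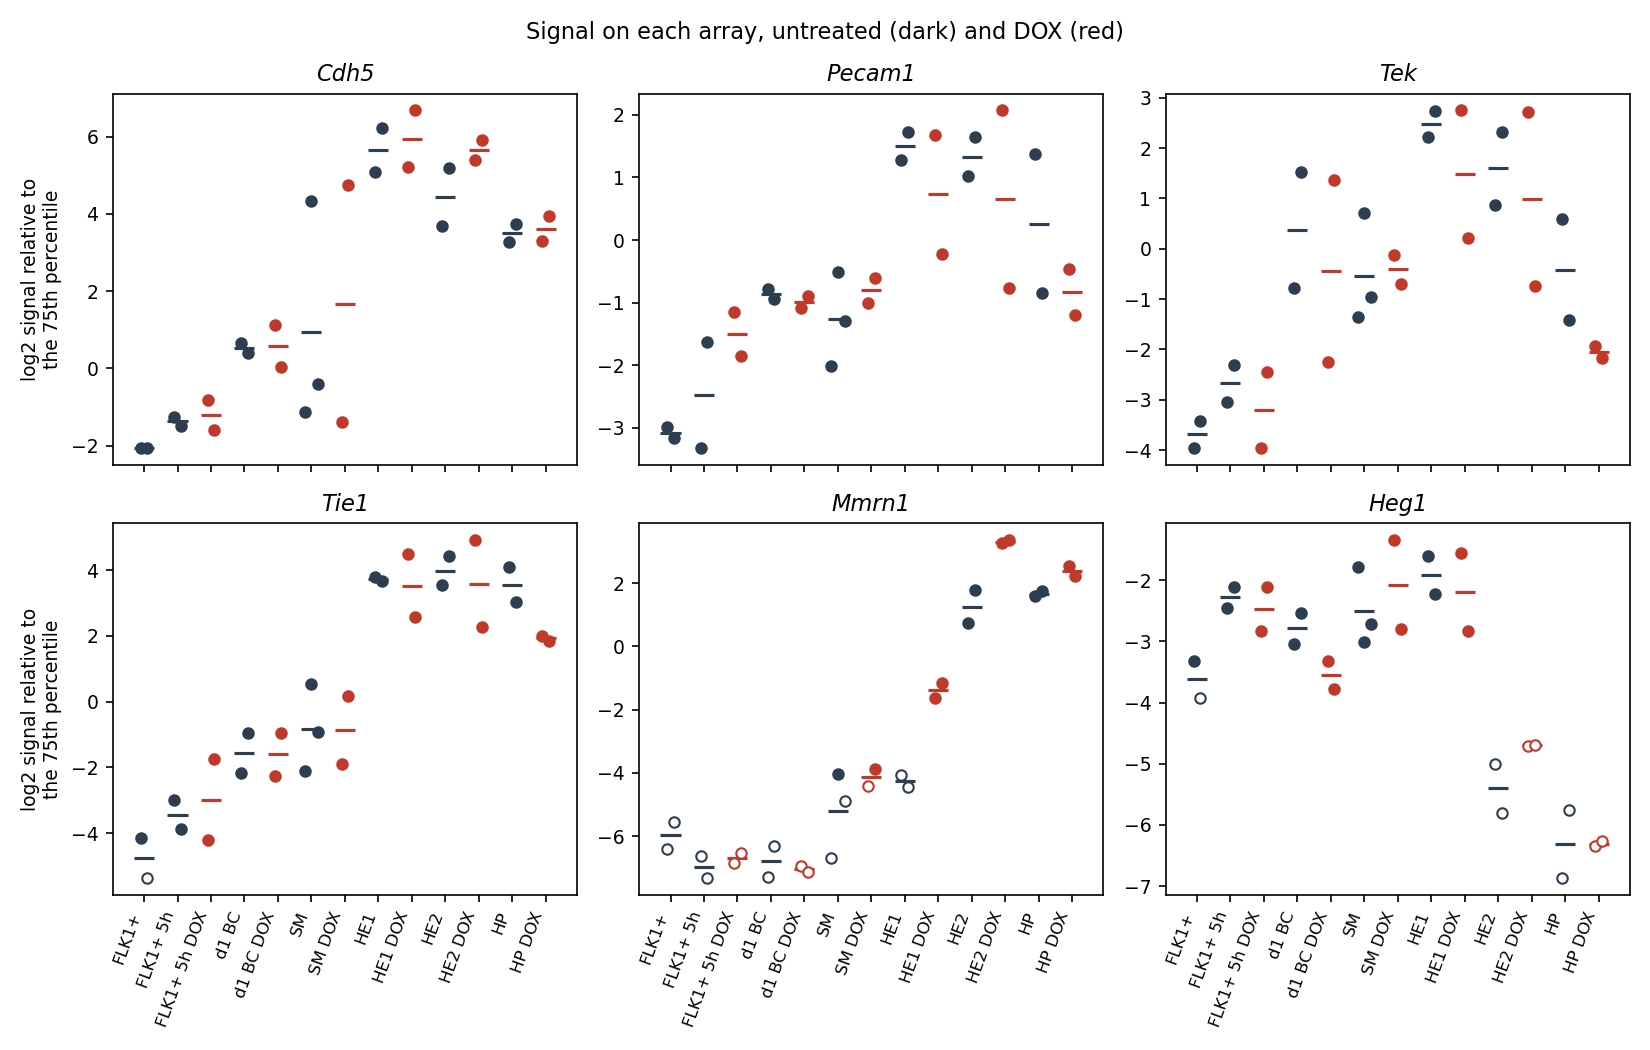
Log2 signal relative to the 75th percentile of the array (vertical axis) for 6 genes on each array of the 13 groups, with untreated arrays in dark and DOX arrays in red. Short lines are group means and open points were not well above background. Cdh5, Pecam1, Tek and Tie1 climb from FLK1+ cells to HE1, and Heg1 drops to background in HE2 and HP. Mmrn1 is above background on all HE2 and HP arrays, both DOX-treated HE1 arrays and 1 array each of SM and DOX-treated SM.

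The comparison of FLK1+ cells with HE1 asked how much of the endothelial program was gained between mesoderm and the first haemogenic endothelium. Of the 38 genes tested, 32 rose and 0 fell, against 7.50% of all genes tested that were called higher. The median log2 fold change was 5.15 over the 38 genes and 0.0847 over all genes. With the 6 genes at background in FLK1+ cells set at their bound, the members' median was 4.84. Both HE1 arrays were above or below both FLK1+ arrays in 36 of the 38, against 71.2% of all genes tested.

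Tie1, the partner of TIE2, had a large rise. It was at -4.16 and -5.37 in FLK1+ cells, where only 1 of the arrays was above background, and at 3.81 and 3.69 in HE1, a rise of 8.51 (log2, SE 1.04, limma adjusted p = 4.44e-05). Stab1, a scavenger receptor, was not above background on either FLK1+ array (-4.47 and -5.58) and stood at 3.92 and 2.96 in HE1, which was at least 208-fold higher (limma adjusted p = 3.32e-05). Cd34, a sialomucin of vessels and of blood progenitors, went from -2.20 and -2.52 to 5.78 and 5.76, a rise of 8.13 (SE 1.15, limma adjusted p = 0.000165), and a dimmer second probe gave 5.14. Cdh5 rose by 7.72 (SE 1.53, limma adjusted p = 0.0027), Tek by 6.16 (SE 1.23, limma adjusted p = 0.0029), in cells sorted for TIE2, and Pecam1 by 4.58 (SE 0.87, limma adjusted p = 0.00193). In each of these genes the HE1 arrays lay above the FLK1+ arrays without overlap.

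The gains ran through every role. All 9 junction and surface genes rose, by 4.58 to 8.13. They include Esam, Icam2, Emcn and Cldn5, which hold or coat the endothelial surface, and Ptprb, a phosphatase that opposes TIE2 signalling. Plvap, of the diaphragms of fenestrated vessels, is also among them, and its probes gave 6.33 and 3.73. Of the 4 angiopoietin and TIE genes, 3 rose (Tie1, Tek and Angpt2), while Bmx, a kinase downstream of TIE2, was at -1.10 and -1.62 in FLK1+ cells and at -1.50 and 0.08 in HE1. All 4 genes of haemostasis and vessel tone rose: Thbd (thrombomodulin, above background on 1 of 2 FLK1+ arrays) by 7.39, Nos3 (endothelial nitric oxide synthase) by 5.68, Vwf by 5.27 and Procr (the protein C receptor) by 4.36. Angpt2, Emcn, Calcrl, Lyve1 and Stab2 were at background on both FLK1+ arrays, and HE1 was at least 10.95-fold, 27.8-fold, 22.7-fold, 9.28-fold and 6.08-fold higher.

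Of the 13 receptors and ligands, 10 rose. The 3 that did not pass were Egfl7, Apln and Aplnr. Egfl7, a secreted endothelial factor, was already at 5.99 and 5.40 in FLK1+ cells and stood at 7.86 and 8.84 in HE1 (limma adjusted p = 0.141). The apelin receptor Aplnr was at 2.96 and 2.21 in FLK1+ cells and at 2.68 and 1.003 in HE1, and its ligand Apln at 0.36 and -0.23 and at -1.07 and -0.43. The apelin pair, which acts in early mesoderm as well as in vessels, was thus not low in FLK1+ cells. Calcrl and Ramp2, which together form the adrenomedullin receptor, both rose, Calcrl from background and Ramp2 by 5.40.

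Among 5 intracellular genes, Rasip1, Rhoj and Myct1 rose by 4.71, 4.77 and 4.13, and a dimmer second probe of Myct1 gave 8.17. Rasip1 and Rhoj act on small GTPases in vessel tube formation. Heg1, a transmembrane partner of the junction protein CCM1, was at -3.31 and -3.92 in FLK1+ cells and -1.61 and -2.23 in HE1 (limma adjusted p = 0.0676). Arhgef15, an endothelial exchange factor, was at 3.54 and 3.51 in FLK1+ cells and at 2.25 and 1.96 in HE1, lower on both HE1 arrays with a log2 difference of -1.42 that did not pass (limma adjusted p = 0.163). Mmrn1 was not above background in either group and was not tested.

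The FLK1+ to HE1 calls depended on the arrays and the slide, while the members' median stayed at 4.92 to 5.54 with any 1 array left out. The count was 20 without FLK1+ replicate 2, 26 without replicate 1, and 23 without either HE1 array. With slide as a fixed block, which links FLK1+ and HE1 only through SM, 15 genes rose, 1 fell (Apln) and the median log2 difference was 3.02. Slide and group cannot be told apart between FLK1+ cells and HE1 directly. Markers of other cells moved in the same comparison. Of 8 smooth muscle markers tested, 4 were higher and 4 lower in HE1, and 1 was called, Acta2, the smooth muscle actin, which rose by 6.11 (SE 0.65, limma adjusted p = 1.33e-05). Of 7 fibroblast markers tested, 3 rose (Postn, Col1a2 and Col3a1) and 2 fell (Thy1 and Pdgfra), and the summed signal of 8 fibroblast markers was 11.7 to 15.9 in FLK1+ cells and 46.4 to 88.8 in HE1. The haematopoietic markers summed to 5.15 to 6.05 in FLK1+ cells and 47.2 to 50.5 in HE1, and the erythroid markers to 6.04 to 7.78 and 48.1 to 49.1. Macrophage markers summed to 12.2 to 17.2 and 52.1 to 75.5. The part of all these markers in the endothelial result was not tested.

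The first day of blast culture was covered in 2 steps, and neither had a called member; FLK1+ cells were not compared with d1 BC directly. From FLK1+ to FLK1+ 5h, 0 of 33 tested genes were called, against 3.28% of all genes, and the median was 0.0653. At an unadjusted p under 0.05 there were 5, against 15.9% of all genes, and the arrays did not overlap in 23 of the 33, against 58.7% of all genes. Lyve1, a hyaluronan receptor, was at background at -6.48 and -5.91 in FLK1+ cells and at -4.37 and -3.07 after 5 h, at least 1.59-fold higher, and did not pass (limma adjusted p = 0.0751), and Aplnr went from 2.96 and 2.21 to 0.70 and 0.15 (limma adjusted p = 0.329). Cdh5, Pecam1 and Tek differed by 0.69, 0.60 and 1.01 with SEs of 1.53, 0.87 and 1.23. Lyve1 was called when SM replicate 2 was left out of the fit, making the count 1, and both Lyve1 and Angpt2 were called, as higher, with slide as a random block.

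From FLK1+ 5h to d1 BC, 0 of 32 were called, against 1.70% of all genes, with 4 at an unadjusted p under 0.05 against 11.3% of all genes, and the arrays did not overlap in 24 of the 32, against 45.6%. The median was 0.746, and 23 of the 32 were higher in d1 BC. The largest differences were those of Tek (3.05, SE 1.23, limma adjusted p = 0.322) and Ecscr, a regulator of endothelial migration. Ecscr was at 0.67 and 0.49 after 5 h and at 3.76 and 3.42 in d1 BC, without overlap (3.01, SE 1.02, limma adjusted p = 0.191), and it remained at 2.10 to 5.68 on every untreated array of the sorted cells.

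HE1 was compared with SM cells, another population sorted from blast culture. The SM arrays were not free of blood signal. The 10 erythroid markers summed to 76.6 to 570 in SM, against 48.1 to 49.1 in HE1 and 167 to 286 in HP. From SM to HE1, 8 of these 10 were lower, none of them called, and the haematopoietic marker Gata1 was called lower. The part of this in the endothelial result was not tested. Of 38 genes tested, 9 were higher in HE1 and 0 lower, against 0.286% of all genes called higher. These were Tie1, Cldn5, Emcn, Mmrn2, Stab1, Eng, Cd93, Vwf and Lyve1. The median log2 difference was 3.92 over the 38 genes and 0.0332 over all genes. In 37 of the 38 the mean was higher in HE1, and in 32 the arrays did not overlap, against 24.2% of all genes tested.

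Cd93, a C-type lectin-like receptor, was at -0.44, 3.47 and -0.40 in SM and at 6.10 and 6.26 in HE1, a difference of 5.30 (SE 1.05, limma adjusted p = 0.0271). Cldn5, the claudin of endothelial tight junctions, was at -4.87, -2.24 and -2.91 in SM, above background on 2 of the 3, and at 3.00 and 0.49 in HE1 (5.09, SE 0.96, limma adjusted p = 0.0209). Stab1 was at -2.92, 0.61 and -2.58 in SM and 3.92 and 2.96 in HE1 (5.06, SE 0.91, limma adjusted p = 0.0209). All 3 were higher on SM replicate 2 than on the other SM arrays and higher again in HE1.

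Cdh5, Pecam1 and Tek were higher on both HE1 arrays than on every SM array, by 4.72, 2.77 and 3.02 (SE 1.39, 0.79 and 1.12), and did not pass (limma adjusted p = 0.128, 0.113 and 0.292). Gpr182, an orphan receptor of endothelium, differed most, by 5.56, and was not called either (SE 1.40, limma adjusted p = 0.0695). Angpt2, the angiopoietin that modulates TIE2, was at -1.55, -2.21 and -1.48 in SM and -0.22 and -1.58 in HE1, and the arrays overlapped. Heg1 and Arhgef15 overlapped too.

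This count rested on single arrays. It was 26 without SM replicate 2 and 0 without SM replicate 1, without SM replicate 3 or without HE1 replicate 2, and 1 without HE1 replicate 1. It was 21 without either DOX-treated SM array, which changes only the pooled spread. With the 2 groups alone 0 were called. The median within the slide that held SM replicate 3 and HE1 replicate 1 was 4.49, and within the slide of SM replicate 2 and HE1 replicate 2 it was 1.58. On both slides 37 of the 38 genes were higher in HE1. With the replicate block 0 were called, with quantile normalization 19 and with the authors' processed values 27.

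**Figure D3:**
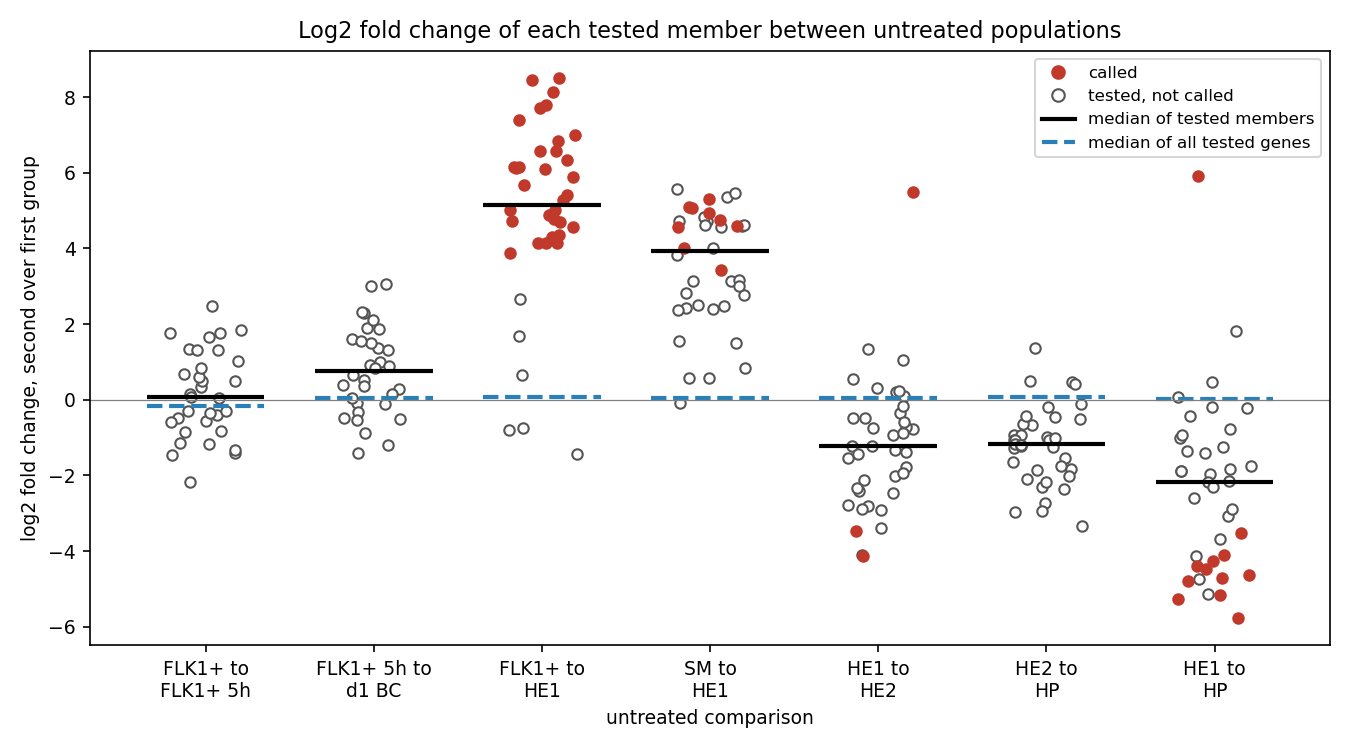
Log2 fold change of each tested gene (points, red where called and open where not) in the 7 comparisons of untreated populations (horizontal axis), with the median of the tested members (black line) and of all genes tested (blue dashed line). The members lie far above the line of all genes from FLK1+ and from SM to HE1, and below it from HE1 to HE2 and HP, with Mmrn1 as the high point in both. Genes at background in a group are drawn at their fitted value, which has no fixed size.

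From HE1 to HE2, the step at which CD41 appears, 1 of 39 genes rose and 2 fell, against 0.567% of all genes called higher and 2.08% called lower. The median was -1.23, and 31 of the 39 means were lower in HE2. Mmrn1, which encodes the platelet and endothelial protein multimerin, was not above background on the HE1 arrays (-4.06 and -4.43) and was at 0.74 and 1.77 in HE2, at least 38.0-fold higher (limma adjusted p = 0.000256). Angpt2 was at -0.22 and -1.58 in HE1 and at -4.85 and -5.21 in HE2, where 1 of the arrays was above background (-4.13, SE 0.52, limma adjusted p = 0.000374). Heg1 was at -1.61 and -2.23 in HE1 and not above background on either HE2 array, where it was at least 5.30-fold lower (limma adjusted p = 0.00317). In all 3 genes the HE1 and HE2 arrays did not overlap, which held for 32.1% of all genes tested. Within each of the shared slides the differences had the same sign.

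Cdh5, Pecam1 and Tek overlapped between HE1 and HE2 and differed by -1.22, -0.17 and -0.88 (SE 1.53, 0.87 and 1.23). Nos3 was at 5.36 and 5.67 in HE1 and at 1.40 and 1.44 in HE2, a log2 difference of -4.10 that did not pass (limma adjusted p = 0.129). Stab1 and Thbd likewise had no overlap (-3.39 and -2.91) and limma adjusted p of 0.0848 and 0.127. Without SM replicate 2 the count of genes that fell was 4, with Stab1 and Nos3 added. With slide as a fixed block it was 6, with Nos3, Stab1, Thbd and Ecscr added, and with the authors' processed values Nos3, Stab1 and Thbd were called but Heg1 was not. With normexp only Mmrn1 was called, and with only these groups 0 were. The within-slide medians were -1.41 and -1.14.

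The marker lists moved across the same step. The summed signal of 10 megakaryocyte and platelet markers, whose lineage also makes multimerin, was 3.16 to 4.66 in HE1, 44.9 to 73.0 in HE2 and 82.3 to 124 in HP. Of the 8 of them tested from HE1 to HE2, 3 rose (Itgb3, Treml1 and Gp9). The 12 haematopoietic markers summed to 47.2 to 50.5 in HE1 and 170 to 200 in HE2, and 6 of the 12 rose. The 10 smooth muscle markers summed to 282 to 616 in HE1 and 81.9 to 82.3 in HE2, and Acta2 fell by 3.11 (limma adjusted p = 0.0123). The 8 fibroblast markers summed to 46.4 to 88.8 in HE1 and 3.91 to 5.32 in HE2, and 3 of the 7 tested fell (Pdgfra, Col1a2 and Col3a1). The part of other cell types in the endothelial values was not tested.

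From HE2 to HP, 0 of 37 genes were called, against 0.00394% of all genes (1 gene; 151 higher and 7 lower with the authors' processed values, 60 and 3 with quantile normalization), and 5 had an unadjusted p under 0.05, against 6.57% of all genes. The median was -1.17, and 33 of the 37 means were lower in HP. Emcn, the endomucin of the vessel surface, came nearest, with -0.82 and -1.12 in HE2 and -3.75 and -4.86 in HP (-3.34, SE 0.92, limma adjusted p = 0.316). The arrays did not overlap in 26 of the 37, against 30.2% of all genes tested.

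Over the whole path from HE1 to HP, 11 of 39 genes fell and 1 rose, against 2.75% of all genes called lower and 1.83% called higher. The median was -2.17, against 0.0264 over all genes, and 35 of the 39 means were lower in HP. The genes that fell were Gpr182, Ptprb, Nos3, Mmrn2, Emcn, Stab1, Cldn5, Heg1, Angpt2, Thbd and Vwf.

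Gpr182 was at 3.01 and 3.30 in HE1 and at -3.11 and -2.13 in HP, a fall of 5.78 (-5.78, SE 1.54, limma adjusted p = 0.0354), with HE2 between them at 0.49 and 0.21. Ptprb was at 4.95 and 5.31 in HE1, 2.90 and 2.70 in HE2 and -0.31 and 0.03 in HP (-5.27, SE 1.36, limma adjusted p = 0.0297). Nos3 ended at 0.16 and 0.57 in HP (-5.15, SE 1.31, limma adjusted p = 0.0267). Before blast culture, in FLK1+ cells, Ptprb had been at -1.65 and -1.25 and Nos3 at 0.20 and -0.54, so that the Nos3 arrays of HP and FLK1+ cells overlapped and the Ptprb arrays of HP lay higher.

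Heg1 and Angpt2 were not above background on either HP array and were at least 10.2-fold and 17.6-fold lower there than in HE1. By role, 3 of the 4 haemostasis and vessel tone genes fell (Thbd, Vwf and Nos3), 3 of 9 junction and surface genes (Cldn5, Emcn and Ptprb), 2 of 13 receptors and ligands (Mmrn2 and Gpr182), 1 of 4 angiopoietin and TIE genes (Angpt2), 1 of 5 intracellular genes (Heg1) and 1 of 4 scavenger and lymphatic genes (Stab1).

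Other members were lower without being called, stayed near their HE1 level or were higher. Icam2, Robo4, Ramp2 and Cd93 were lower in HP without overlap, by log2 -5.15, -4.75, -4.13 and -3.67 (SE 1.51, 1.42, 1.56 and 1.15), and did not pass (limma adjusted p = 0.061, 0.0669, 0.179 and 0.0846). Over all genes tested, the HE1 and HP arrays did not overlap in 50.3%. Mmrn1 was at 1.58 and 1.75 in HP, at least 50.5-fold higher than in HE1 (limma adjusted p = 2.88e-05). Cd34 was at 5.78 and 5.76 in HE1, 6.30 and 7.93 in HE2 and 6.88 and 8.30 in HP, higher on both HP arrays than in HE1 but not called (1.82, SE 1.15, limma adjusted p = 0.538). Tie1 was at 3.81 and 3.69 in HE1, 3.55 and 4.43 in HE2 and 4.09 and 3.04 in HP, and the 3 populations overlapped. Lyve1 held -1.0005 and -1.34 in HE1, -0.47 and 0.25 in HE2 and -1.70 and -1.06 in HP. Cdh5 and Tek were lower on both HP arrays than in HE1, with log2 differences of -2.16 and -2.90, and did not pass (limma adjusted p = 0.593 and 0.26), and Pecam1 overlapped.

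Each of the arrays weighed on the HE1 to HP count of 12. It was 3 without HE1 replicate 1, 6 without HE1 replicate 2 and 4 without either HP array. With slide as a fixed or random block 17 genes fell, among them Icam2, Robo4, Ramp2 and Cd93, and 9 fell when probes had to be above background in both populations. Heg1 was not called with normexp or the authors' processed values. Within the pair of slides that held both populations the medians were -2.26 and -2.24, and 33 and 34 of the 39 genes were lower in HP.

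DOX, which induces dnFOS, was compared with no DOX in each population to ask which endothelial genes change when AP-1 binding is blocked. None of the 39 genes was called in any of the 6 populations by limma. The counts of all genes called were as low: 0.00420% in FLK1+ 5h, 0.00834% in d1 BC, 0.0210% in SM, 0.0398% in HP and 0% in both HE1 and HE2. In HP, 1 gene was called higher and 9 lower, which became 4 and 124 with the authors' processed values, 0 and 44 with normexp and 3 and 32 with quantile normalization, without a member among them. At an unadjusted p under 0.05 there were 2 genes each in HE1, HE2 and d1 BC, 1 each in SM and FLK1+ 5h cells, and 0 in HP. Over all genes that share was 1.27% in HE1, 9.87% in HE2, 1.65% in d1 BC, 2.84% in SM, 5.33% in FLK1+ 5h cells and 3.74% in HP. The median log2 difference of the tested members in HE1, HE2 and HP was 0.0489, 0.503 and 0.161, against 0.0881, 0.165 and 0.253 over all genes. In FLK1+ 5h cells it was 0.0381, against -0.0357 over all genes, and in d1 BC -0.0772 against 0.132. SM cells had 0.466, against 0.0868. The SM median of 0.466 turned to -1.20 without DOX-treated SM replicate 2 and to 1.53 without its replicate 1, and it was -0.17, 1.08 and 0.0144 without untreated replicates 1, 2 and 3. It was -0.03 and -0.07 within the slides that held both arms.

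Mmrn1 was the member with the lowest p in HE1 and HE2. In HE1 it was not above background without DOX and stood at -1.63 and -1.15 on the DOX arrays, at least 6.09-fold higher (limma adjusted p = 1). In HE2 it was at 0.74 and 1.77 without and 3.26 and 3.36 with DOX (2.06, SE 0.65, limma adjusted p = 0.497), and in HP at 1.58 and 1.75 without and 2.54 and 2.23 with DOX. The DOX arrays of Mmrn1 were higher without overlap in all 3 populations, and none of the differences passed. In the average over the 6 populations, where the FLK1+ 5h and d1 BC arrays of both arms and untreated HE1 entered at background, Mmrn1 did not pass and has no fixed size (limma adjusted p = 0.0995). It was called without SM replicate 2 and with slide as a block, which made the count of members called in the averaged DOX effect 1 in place of 0, against 0.205% of all genes. At an unadjusted p under 0.05 there were 4 members in that average, against 8.31% of all genes.

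Stab2, the second stabilin scavenger receptor, was at -0.67 and -2.89 in untreated HE1 and 1.36 and -0.82 on DOX. The arms overlapped, but within the 2 slides that held both the DOX array was higher, by 2.03 and 2.07. In HE2 it was at -4.93 and -4.22, with 1 array above background, and at -0.88 and -3.21 on DOX (2.53, SE 1.06, limma adjusted p = 0.497), which was 4.05 and 1.01 within slides. In HP the within-slide values were 1.76 and 0.24. Lyve1 was lower on DOX in HE1, at -2.55 and -2.93 against -1.0005 and -1.34 (-1.57, SE 0.73, limma adjusted p = 1), and in HE2 the arms overlapped. In HP, Tie1 went from 4.09 and 3.04 to 2.00 and 1.86 (-1.63, SE 1.04, limma adjusted p = 0.998) and Eng, the TGF-beta co-receptor endoglin, from 2.39 and 2.52 to 0.93 and 2.09 (-0.95, SE 0.70, limma adjusted p = 0.998).

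In both complete cultures Procr and Thbd, which act together against clotting, had the lowest log2 differences with DOX of the tested members. Procr was at 1.70 and 0.45 after 5 h without DOX and 0.09 and 0.20 with it, and at 1.71 and 1.25 against 0.28 and -0.53 in d1 BC (-1.60, SE 0.76, limma adjusted p = 1). Thbd went from -0.79 and -0.60 to -2.37 and -2.25 in d1 BC without overlap and was not called either. Over all genes tested, the arms did not overlap in 28.5% in d1 BC. In HE2 Procr went the other way, at 3.51 and 3.59 on DOX against 1.64 and 2.63, without overlap, against 34.7% of all genes. Angpt2 also ran in opposite directions. It was lower on DOX in d1 BC, at -4.40 and -4.46 against -2.79 and -3.40 (-1.34, SE 0.52, limma adjusted p = 1), with 1 of the 2 DOX arrays above background. It was higher in SM, at -0.29 and -0.75 against -1.55, -2.21 and -1.48 (1.23, SE 0.48, limma adjusted p = 0.996). Whether the Angpt2 effect differs between d1 BC and SM was not tested. Bmx was higher on both DOX arrays after 5 h, at -1.09 and -1.49 against -3.76 and -1.78 (limma adjusted p = 0.924). Gpr182 in SM had a difference of 2.06 with overlapping arrays, at -2.90 and 2.22 on DOX against -4.20, 1.73 and -4.74 (limma adjusted p = 0.996). With 1 array left out that difference ran from -0.50 to 4.62. In the other sorted cells the DOX arrays of Gpr182 were higher without overlap, at 4.46 and 4.05 in HE1, 1.66 and 1.92 in HE2 and -1.24 and -1.10 in HP. Over all genes tested, the arms did not overlap in 17.0%, 34.7% and 38.1%. The Gpr182 differences did not pass (1.10, 1.43 and 1.45, each with SE 1.54, limma adjusted p = 1, 0.658 and 0.998).

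Differences of the DOX effect in HE2, HP and SM from that in HE1 were tested as interactions. None of the 39 genes passed in any of them, and 0% of all genes did. At an unadjusted p under 0.05 there were 0, 1 and 0 members, the 1 being Mmrn1 in HP (limma adjusted p = 1), whose size is not fixed because untreated HE1 was at background. Over all genes these shares were 1.31%, 1.53% and 0.504%.

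**Figure D4:**
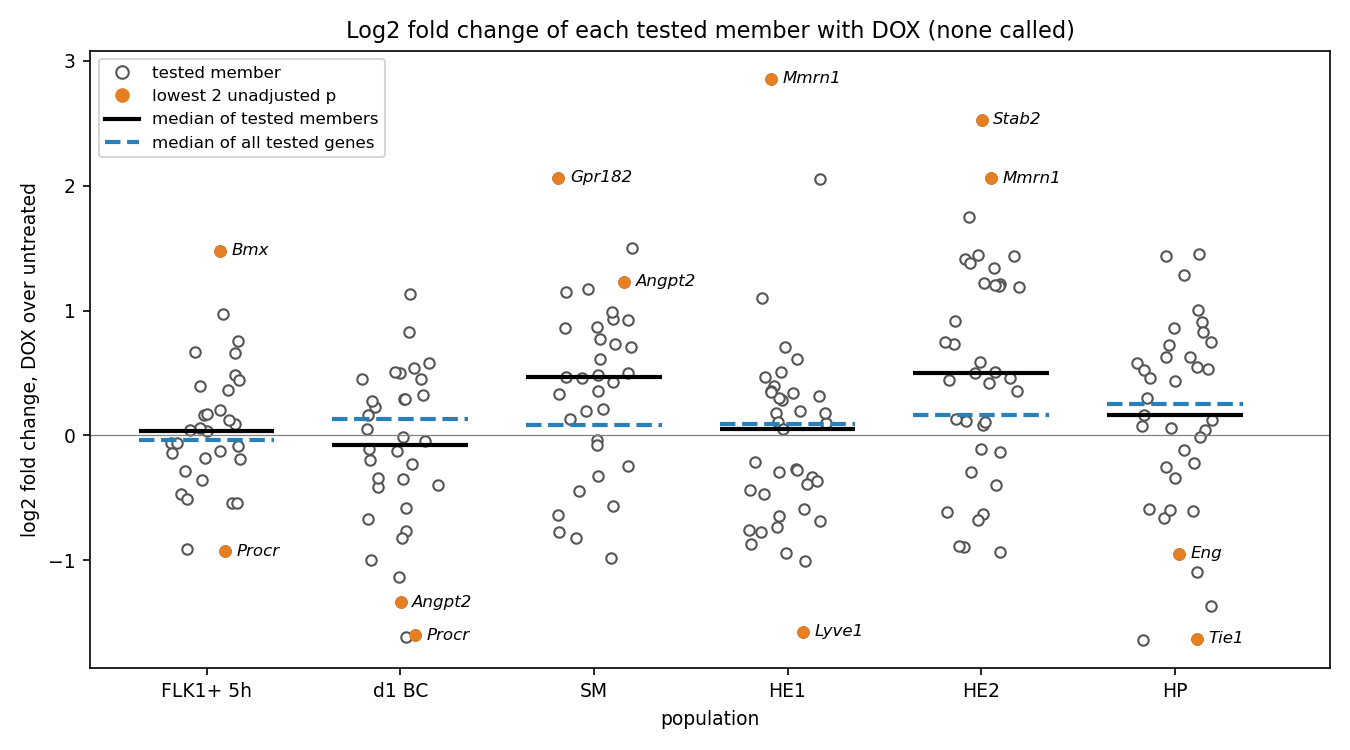
Log2 fold change with DOX over no DOX (vertical axis) of each tested gene in the 6 populations, with the 2 genes of lowest unadjusted p in each population in orange and named. Black lines are medians of the tested members and blue dashed lines medians of all genes tested. No point was called, and the members spread on both sides of 0 in every population. Mmrn1 in HE1, at background without DOX, is drawn at its fitted value.

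Other genes of the endothelial program were listed from general knowledge to set beside the 39, also with earlier results of these data known. Among 22 endothelial transcription factors, 9 rose and 1 fell from FLK1+ cells to HE1, all 22 being tested, against 7.50% of all genes called higher and 5.30% called lower. Erg, an ETS factor that maintains endothelial identity, was not above background on either FLK1+ array and was at least 54.1-fold higher in HE1 (limma adjusted p = 0.000583). Etv2, the ETS factor that starts the endothelial and blood program in mesoderm, fell by 4.19 from FLK1+ 5h to d1 BC (log2 -4.19, SE 0.79, limma adjusted p = 0.00961) and was lower in HE1 than in FLK1+ cells by 2.81 (log2 -2.81, limma adjusted p = 0.0249). Fli1 was higher in HE1 by 3.45 and did not pass (SE 1.43, limma adjusted p = 0.119). From HE1 to HP, 0 of 21 tested rose and 4 fell (Hey2, Foxc2, Klf4 and Nr2f2), against 2.75% of all genes called lower. Foxc2, with 1 of its 2 HP arrays above background, differed by -6.35 (SE 1.14, limma adjusted p = 0.00227). Erg and Fli1 differed by -0.61 and -0.49 between HE1 and HP, with SEs of 1.16 and 1.43.

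Among 5 VEGF receptors and co-receptors, 0 were called from FLK1+ cells to HE1. Kdr, which encodes FLK1 itself and by which the FLK1+ cells had been isolated, had means of 4.38 in FLK1+ cells, 5.09 in HE1, 4.96 in HE2 and 4.35 in HP. Nrp2 was the 1 of the 5 that fell from HE1 to HP (-2.33, SE 0.51, limma adjusted p = 0.00935).

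Among 11 arterial, venous and Notch genes, 5 rose and 1 fell from FLK1+ cells to HE1, against the same shares of all genes, and 3 of 11 tested were higher in HE1 than in SM (Notch4, Gja5 and Gja4), against 0.286% of all genes. Gja4, an arterial connexin, had the largest of these differences, at 4.86 (SE 1.12, limma adjusted p = 0.0498). The same 3 were called without SM replicate 2 or either DOX-treated SM array, and 0 without SM replicate 1, SM replicate 3 or either HE1 array. No transcription factor was called from SM to HE1, but 9 were higher in HE1 without SM replicate 2 and 5 without either DOX-treated SM array. From HE1 to HE2, 0 of 10 tested rose and 4 fell (Efnb2, Notch4, Unc5b and Gja5), against 2.08% of all genes called lower, and from HE1 to HP, 1 rose (Jag1) and 3 fell (Efnb2, Notch4 and Unc5b), against 1.83% called higher and 2.75% lower. Efnb2, the arterial ephrin ligand, fell by 4.36 from HE1 to HP (log2 -4.36, SE 0.65, limma adjusted p = 0.000422). With DOX, 0 genes of these 3 lists were called in any population by limma.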

How the data were processed

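Each RNA sample was hybridised to an Agilent mouse array in a single colour. The deposited spot signal is an intensity that the authors obtained with Agilent Feature Extraction, background-subtracted and detrended within each array but not scaled between arrays. The deposited spot median and local background are also intensities. The authors' processed values are log2 values normalized between arrays by a method not given in the sources used here. The column medians ran from 5.98 to 6.00. All 27 columns followed the spots of their own array most closely. The version of Feature Extraction was 10.7.1.1 in the submitters' processing notes and 10.7.3.1 per the file headers. Gene symbols came from RefSeq (GRCm38.p6).

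Spots of a probe were averaged without outlier spots, taken to log2 and scaled to the 75th percentile of the array. Of 37208 genes or transcripts, 28339 entered a linear model of 13 group means in R 4.3.3, fitted with limma 3.58.1 and moderated by its empirical Bayes step (14 residual and 4.33 prior degrees of freedom). Tables and figures used the R package data.table, version 1.17.8, and Python 3.11.15, pandas 2.3.3, numpy 2.4.6 and matplotlib 3.10.9. Where no array of a group was above background, folds are bounds, the brighter mean against the lowest signal well above background on each dim array. The DOX average and interactions were contrasts of the same fit, the latter called at adjusted p under 0.05 alone. The fit was tested on simulated data, with 50 genes changed between HE1 and HE2 at each size. It called 0% of those changed by log2 1, 12% at 2, 32% at 3 and 72% at 4. There were 2 false calls among 25327 genes. Of 7 members with 2 probes, Clec14a and Bmx had a dim second probe. Those of Cd34, Myct1, Plvap and Nos3 differed from the probes used in size, and in some comparisons in sign. On DOX in HE2, Cd34 gave 0.08 with the probe used and -1.73 with the second, and Plvap gave 0.44 and -1.20. On DOX in HE1, Nos3 gave 0.30 and -0.61.

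All members were accounted for. Values on every array were given for Cdh5, Pecam1 and Tek, for the 3 called members with the largest change in each direction without overlap, and for the 2 with the lowest p in each DOX comparison. Other members were named where a count or role needed it, some after their values were seen. The members, roles and lists were chosen with earlier results of these data known. Alternatives were normexp with offset 50, quantile and median scaling, the authors' values, other filters and probes, replicate, slide and scan day blocks, fits on the compared groups alone, no fold minimum and leaving out each array.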

Additional observations from a re-analysis of the deposited data

Results flagged for a closer look

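Angpt2 moved in opposite directions on DOX in a pair of populations, with every DOX array beyond every untreated array in each. It was lower by log2 -1.34 in d1 BC, where 1 of the 2 DOX arrays was above background, and higher by 1.23 in SM. The difference between these effects was not tested. Of the 39 genes, 9 had DOX arms apart in opposite directions in some pair of populations, against 21.1% of all genes tested in 2 or more.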

How the results depend on the processing

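With 2 or 3 arrays in a group, several counts of called genes moved with the fit, and the cause was not tested. From FLK1+ to FLK1+ 5h, 0 genes were called, but 1 with quantile normalization or slide as a fixed block and 2 with slide as a random block, with the replicate block or with only these groups. From FLK1+ 5h to d1 BC, 0 became 1 with the authors' processed values, slide as a fixed or random block or only these groups. From FLK1+ to HE1, 32 became 16 (15 higher, 1 lower) with slide as a fixed block. From SM to HE1, 9 became 19 with quantile normalization, 27 with the authors' processed values, 25 with slide as a random block, and 0 with the replicate block or only these groups. From HE1 to HE2, 3 became 1 with normexp, 5 with the authors' processed values, 7 and 6 with slide as a fixed and a random block, and 0 when probes had to be above background in both groups or with only these groups. In the averaged DOX effect, 0 became 1 with slide as a fixed or random block. Leaving out each array in turn, the counts ran from 0 to 1 for FLK1+ to FLK1+ 5h, 20 to 33 for FLK1+ to HE1, 0 to 26 for SM to HE1, 2 to 5 for HE1 to HE2, 3 to 17 for HE1 to HP and 0 to 1 for the averaged DOX effect. From HE2 to HP and in the interactions, 0 were called in every alternative.

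Of 16 named results that were called, 0 changed direction in any alternative. Pecam1 turned from HE1 to HE2 with median scaling (log2 0.022), and on leaving out arrays ran from -0.49 to 0.14 there, from -0.25 to 1.45 from FLK1+ to FLK1+ 5h and from -2.18 to 0.037 from HE2 to HP. Gpr182 in SM on DOX ran from -0.50 to 4.62. Median scaling moved the median of all genes from 0.0847 to -0.905 for FLK1+ to HE1, where 664 genes were then called higher and 3263 lower in place of 1720 and 1215 (1676 and 1676 with the authors' values, 870 and 1024 with normexp), and from 0.0264 to 0.635 for HE1 to HP, with 616 higher and 237 lower in place of 459 and 690 (864 and 807 with the authors' values, 808 and 789 with quantile normalization). From FLK1+ 5h to d1 BC 158 and 240 became 89 and 352. From HE1 to HE2 the split of 133 and 488 became 97 and 149 (374 and 792 with the authors' values, 308 and 795 with quantile normalization), and from SM to HE1 that of 67 and 110 became 39 and 32 (318 and 388 with the authors' values, 228 and 238 with quantile normalization). The members' median from FLK1+ to HE1 was 4.16 with median scaling and 4.02 with normexp.

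The replicate numbers are not stated to mark a batch. Deviations of same-numbered arrays from their group means correlated over 16033 genes with r from 0.272 (SM to HE1) to 0.487 (HE1 to HP) between untreated sorted cells, and from 0.248 (HE2) to 0.798 (SM) between untreated and DOX arrays of sorted cells. It was 0.604 in d1 BC and -0.00785 after 5 h on DOX, -0.0249 for FLK1+ 5h and d1 BC, -0.121 for FLK1+ and FLK1+ 5h and -0.156 for FLK1+ and HE1. The replicate block also moved the count from HE1 to HP from 12 to 13, and left the other counts as they were. Crossing the FLK1+ numbers in the block, chosen after seeing the data, called 2 genes from FLK1+ to FLK1+ 5h and 32 from FLK1+ to HE1.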
